A study of Mus musculus with 6 samples.

Results

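The heat shock proteins and DnaJ proteins are the molecular chaperones that bind unfolded protein chains. Their 68 genes were taken here from the 19321 genes named on a mouse microarray, by symbol: Hspa, Hspb and Hsp90 genes with a number, Hsph1, Hspd1, Hspe1, and Dnaja, Dnajb and Dnajc genes with a number. Where a gene had several of the 74 matching probes, the brightest by its mean over all arrays was used. All 68 passed the filter for the tests, a signal above background on 2 or more of the 6 arrays, and the tests ran over 18371 genes; 64 were above background on all 6 arrays, Dnajb13 on 5, and Dnajc5b, Dnajc5g and Hspb3 on fewer. The genes comprise 12 of the HSP70 family, 7 small heat shock proteins, 3 of the HSP90 and HSP110 families, the 2 subunits of the mitochondrial chaperonin, and 4 DnaJ A, 12 DnaJ B and 28 DnaJ C genes, among which Dnajc19-ps is annotated as a pseudogene. Hspa1b and Hsp90ab1 were not analysed here.

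The arrays measured RNA of cells freshly sorted from hind limb muscle of C57BL/6 mice. The sorted populations were PDGFRa+ mesenchymal progenitors, the stromal cells from which fat and scar tissue can form in muscle, satellite cells, the quiescent precursors that regenerate muscle fibres, and cells carrying CD31 or CD45, a mixture of endothelial and blood-lineage cells called CD31_CD45 below. Each was taken from aged mice (24 to 28 months) and from young mice (8 to 10 weeks), and no group carried an introduced allele or a treatment. There was 1 array for each population and age, of cells pooled over several sorts, so that no group has a replicate and the arrays' number limits the precision.

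HSP70 proteins hold exposed stretches of a chain in a cycle driven by ATP, DnaJ proteins bring the chain to them and start that cycle, HSP90 acts later on signalling proteins, and the small heat shock proteins hold chains without ATP. The endoplasmic reticulum (ER) and the mitochondrion have chaperones of their own, and BiP (Hspa5) and GRP94 (Hsp90b1) serve the ER. Heat shock factor 1 induces many cytosolic and mitochondrial members through the heat shock element, repeated GAA units in alternating orientation, and ER stress induces ER members through the ER stress element. Enzymatic release and sorting of cells is itself known to induce stress genes.

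Between 88.4% and 92.3% of 23473 probes were above background per array. Across the normalised values of the 18371 genes tested, arrays of 1 population correlated at r = 0.985 to 0.992. Arrays of different populations correlated at r = 0.843 to 0.929. Genes are not independent replicates. Levels are given below in the linear intensity units deposited by the authors, in which the median of each array is 25, and levels of different genes are not compared. Log2 differences come from scanner values normalised here, with an offset of 50 that shrinks the differences of dim genes. Differences between populations were tested over 2 arrays each with limma, with age as a further term, and a gene was called when its adjusted p was under 0.05 and its difference at least 2-fold. Header values of the scanner files split the arrays into a set with both PDGFRa+ arrays and young satellite cells, and a set with aged satellite cells and both CD31_CD45 arrays; differences "within a set" below use the pair of arrays that shares a set. The sort markers followed the labels: Pdgfra read 4149 and 5700.4 in aged and young PDGFRa+ cells and at most 60.6 elsewhere, Pax7 read 1361.6 and 1055 in aged and young satellite cells and at most 10.6 elsewhere, and in aged and young CD31_CD45 cells Pecam1 (CD31) read 2450.7 and 2464.8 and Ptprc (CD45) 414.6 and 251.7.

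The chaperones as a whole were not set apart by how many of them differed between populations. In PDGFRa+ relative to satellite cells 5 of 68 were called (7.35%, against 7.28% of all genes tested), in PDGFRa+ relative to CD31_CD45 cells 4 (5.88%, against 10.1%), and in satellite relative to CD31_CD45 cells 9 (13.2%, against 11.7%). Of the first 5, 2 were higher in PDGFRa+ cells (2.94%, against 4.09%) and 3 lower (4.41%, against 3.2%), and of the 4, 2 were higher (2.94%, against 4.69%) and 2 lower (2.94%, against 5.39%). Of the 9, 7 were higher in satellite cells (10.3%, against 5.11%) and 2 lower (2.94%, against 6.56%). With median scaling in place of quantile normalisation, 4, 3 and 5 of these members stayed called, and the counts were 6 (3 higher, 3 lower), 4 (1 higher, 3 lower) and 6 (4 higher, 2 lower). From the deposited values the second count was 12 (8 higher, 4 lower). With the scanner set as a block 3 of the 5, 2 of the 4 and 4 of the 9 stayed called. The members lost with that block were Dnajb1 and Hsp90b1 in the first comparison, Hspa5 and Hspb1 in the second, and Dnajb1, Hspa5, Hspb1, Hspb11 and Hspe1 in the third, with adjusted p = 0.0597 to 0.465, except Hspe1 (adjusted p = 0.0225), which fell short of 2-fold at 0.76. The counts rested on single arrays in places. Without the aged PDGFRa+ array and without the young one the first count was 0, as was that of all genes, and without the young satellite array it was 2. The second was 1 without the young PDGFRa+ array, and the third 4 without the young CD31_CD45 array. With the local background of each spot subtracted in place of the blank level the counts were 0, 1 and 1. By adjusted p alone, with all arrays and the blank level, the counts were 23 (33.8%, against 24.5%), 19 (27.9%, against 28.7%) and 30 (44.1%, against 34.9%). They divided into 7 higher (10.3%, against 11.7%) and 16 lower (23.5%, against 12.8%) in PDGFRa+ than in satellite cells, 12 higher (17.6%, against 15.1%) and 7 lower (10.3%, against 13.6%) in PDGFRa+ than in CD31_CD45 cells, and 22 higher (32.4%, against 19.3%) and 8 lower (11.8%, against 15.6%) in satellite than in CD31_CD45 cells. The median log2 difference of the 68 genes was -0.08, 0.03 and 0.11 in these comparisons, and that of all genes -0.01, 0.01 and 0.02. The highest mean level lay in PDGFRa+ cells for 19 of the genes (27.9%, against 30.3% of all genes), in satellite cells for 29 (42.6%, against 39.1%) and in CD31_CD45 cells for 20 (29.4%, against 30.6%). In such sorted RNA, fewer cells of a type and less RNA per cell cannot be told apart.

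**Figure D1:**
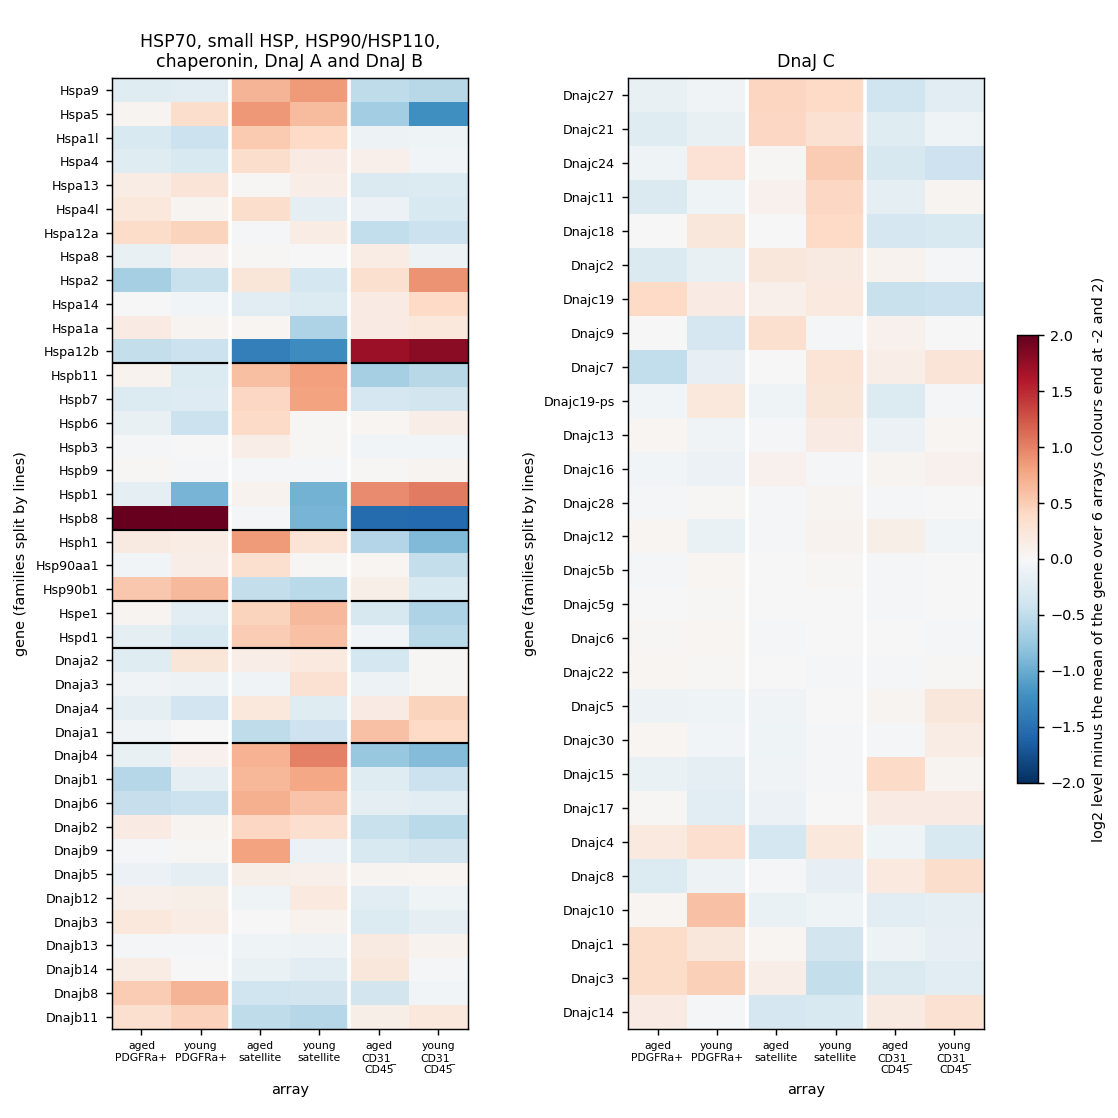
Log2 level of each of the 68 chaperone genes on each of the 6 arrays, minus the mean of that gene over the arrays (colour, with the colours ending at -2 and 2). Hspb8 stands out in both PDGFRa+ arrays and Hspa12b in both CD31_CD45 arrays, while most DnaJ C genes differ little.

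The promoters of 7 members held a heat shock element of 3 units or an ER stress element, and these are shown because several of the genes differed between populations. Of the 68 genes, 55 matched a RefSeq promoter window (build GRCm38.p6, 250 bases before to 50 after the start site, 72 windows). A heat shock element of 3 units (alternating GAA and TTC with 2 free bases between units, starting with either, on each strand) was found in 6 of the 72 windows (8.33%) and in 198 of all 32851 windows (0.603%). The 6 windows belong to 4 members and are not independent. The same match lies in overlapping windows of Dnajb6 and of Hsph1, and Hspd1 and Hspe1 share a matched stretch. The ER stress element (CCAAT, 9 free bases, CCACG, on each strand) was found in 3 of the 72 windows (4.17%) and in 39 of all windows (0.119%). A match is a stretch of letters and not a shown binding site. The sequences follow 5′ to 3′ on the strand of the gene, with the matched letters in capitals. The first 3 hold the heat shock element. Hspe1 and Hspd1 are transcribed in opposite directions from a shared stretch at chr1:55088018-55088117, given here on the strand of Hspe1, where 2 overlapping matches begin 89 and 84 bases before its start site. Hsph1 (chr5:149636287-149636316, minus strand) is shown for the match alone, which lies after its start site. Dnajb6 is shown at chr5:29735798-29735897, plus strand. The ER stress element lies in Hspa5 (chr2:34771984-34772083, plus strand), Hsp90b1 (chr10:86705523-86705666, minus strand, 2 matches) and Dnajc3 (chr14:118937786-118937885, plus strand).
Hspe1: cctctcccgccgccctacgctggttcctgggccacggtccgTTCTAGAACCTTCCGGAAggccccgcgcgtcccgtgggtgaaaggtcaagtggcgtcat
Hsph1: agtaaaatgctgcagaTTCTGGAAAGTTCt
Dnajb6: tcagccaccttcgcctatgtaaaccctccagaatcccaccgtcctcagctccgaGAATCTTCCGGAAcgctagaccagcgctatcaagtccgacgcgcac
Hspa5: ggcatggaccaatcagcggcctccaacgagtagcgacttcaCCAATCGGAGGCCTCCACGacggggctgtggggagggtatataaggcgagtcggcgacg
Hsp90b1: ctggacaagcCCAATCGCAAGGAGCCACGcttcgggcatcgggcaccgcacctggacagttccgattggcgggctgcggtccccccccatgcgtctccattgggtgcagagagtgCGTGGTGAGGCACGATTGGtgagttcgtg
Dnajc3: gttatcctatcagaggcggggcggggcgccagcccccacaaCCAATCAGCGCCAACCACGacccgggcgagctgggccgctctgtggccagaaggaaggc
A shorter heat shock element of 2 units, with the same spacing and contained in each match of 3 units, searched after the data were seen, matched 17 of the 72 windows (23.6%) and 4946 of all windows (15.1%). It occurred in 15 members, among them Hspb8, Hspb1, Hspa1a, Dnajb4 and Dnaja1.

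Among the small heat shock proteins, Hspb8 was highest in PDGFRa+ cells. Hspb8 encodes HSPB8 (HSP22), which works with the co-chaperone BAG3 in the selective autophagy of misfolded proteins. It read 981.3 and 1000.4 in aged and young PDGFRa+ cells, 183.1 and 89.3 in aged and young satellite cells, and 48.2 and 45.9 in aged and young CD31_CD45 cells. Both PDGFRa+ arrays lay above the other 4, and both satellite arrays above both CD31_CD45 arrays. Against satellite cells the difference was 2.51 (log2, SE 0.26, 5.69-fold, limma adjusted p = 0.0146) and against CD31_CD45 cells 3.57 (SE 0.26, 11.85-fold, adjusted p = 0.00549). The difference of 1.06 between satellite and CD31_CD45 cells did not pass (SE 0.26, adjusted p = 0.0548). Within a set, the young PDGFRa+ array stood 2.91 above the young satellite array. Neither call of Hspb8 was kept with the local background. Over 17 alternative fits its lowest differences were 0.23 against satellite and 0.62 against CD31_CD45 cells. Over the 6 of these that left out an array they were 2.09 and 3.33. Bag3, the partner of HSPB8, had another order, with 365.8 and 344.2 in aged and young PDGFRa+ cells, 864.2 and 596.7 in aged and young satellite cells, and 186.4 and 216.1 in aged and young CD31_CD45 cells. It was lower in PDGFRa+ than in satellite cells (-1.05, SE 0.21, adjusted p = 0.0475) and higher in satellite than in CD31_CD45 cells (1.75, SE 0.21, adjusted p = 0.0121).

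Hspb1, which encodes HSP25, the mouse form of the actin-protecting HSP27, was highest in the CD31_CD45 cells. It read 9071.4 and 5565.7 in aged and young PDGFRa+ cells, 15285.1 and 8130.9 in aged and young satellite cells, and 17865.5 and 21332.4 in aged and young CD31_CD45 cells. All 4 arrays of the other populations lay below both CD31_CD45 arrays, by 1.55 for PDGFRa+ cells (log2 -1.55, SE 0.31, adjusted p = 0.0408) and by less for satellite cells (-1.43, SE 0.31, adjusted p = 0.0415). Within a set, aged satellite cells stood at -0.88. Of the 6 fits that left out an array, 2 kept the first call and 1 the second.

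The other small heat shock proteins were highest in satellite cells or near background. Hspb11, also known as IFT25, a part of the intraflagellar transport machinery of the cilium, read 363.3 and 448.9 in aged and young satellite cells against 138.3 and 157.2 in aged and young CD31_CD45 cells (1.32, SE 0.16, adjusted p = 0.0125). PDGFRa+ cells lay between them at 247.4 and 207.1, and below satellite cells by adjusted p alone (-0.81, adjusted p = 0.0461). Hspb7, a chaperone best known from heart and skeletal muscle, read 604.9 and 658.7 in aged and young PDGFRa+ cells, 922.2 and 1320.1 in aged and young satellite cells, and 552.2 and 566.1 in aged and young CD31_CD45 cells. Its difference was -0.88 in PDGFRa+ relative to satellite cells (adjusted p = 0.0252) and 0.96 in satellite relative to CD31_CD45 cells (adjusted p = 0.0146), both short of 2-fold. Myofibre markers were also highest in the satellite arrays: the 12 listed summed to 5805.1 and 3159.1 in aged and young satellite cells, against 260.9 and 487 in aged and young PDGFRa+ cells and 866.9 and 1066 in aged and young CD31_CD45 cells. Their part in the level of Hspb7 was not tested. Hspb6, another muscle member, read 145.9 to 250.9 over the 6 arrays and passed in no comparison. Hspb3 and Hspb9 read at most 4.8 and 5.1.

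Of the HSP70 family, the clearest difference was that of Hspa12b. This distant HSP70 relative, known from endothelium, read 49.7 and 59.3 in aged and young PDGFRa+ cells, 13.3 and 16.8 in aged and young satellite cells, and 356.8 and 401.0 in aged and young CD31_CD45 cells. The populations did not overlap. It was lower in PDGFRa+ than in CD31_CD45 cells (-2.21, SE 0.04, 4.62-fold, adjusted p = 0.000883), lower in satellite than in CD31_CD45 cells (-3.07, SE 0.04, 8.40-fold, adjusted p = 0.000752), and higher in PDGFRa+ than in satellite cells by under 2-fold (0.86, adjusted p = 0.0058). Both calls against CD31_CD45 cells held in 17 of 17 alternative fits. The 12 endothelial markers summed to 694.1 and 653.6 in PDGFRa+, 1147.1 and 1041.7 in satellite, and 40889 and 52214 in CD31_CD45 cells, aged first. Its paralog Hspa12a was dim and lowest in CD31_CD45 cells, with 42.5 and 52.2 in aged and young PDGFRa+ cells, 26.8 and 33.7 in aged and young satellite cells, and 9.8 and 11.4 in aged and young CD31_CD45 cells, and passed by adjusted p alone in all 3 comparisons (0.34, 0.87 and 0.53).

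Hspa5 and Hspa9, an HSP70 of the ER and one of the mitochondrion, were highest in satellite cells. Hspa5 (BiP), the HSP70 of the ER lumen, read 5661.1 and 7014.7 in aged and young PDGFRa+ cells, 13274.6 and 13752.3 in aged and young satellite cells, and 3169.0 and 2371.5 in aged and young CD31_CD45 cells. It was higher in PDGFRa+ than in CD31_CD45 cells (1.16, SE 0.23, adjusted p = 0.0391) and in satellite than in CD31_CD45 cells (1.71, SE 0.23, adjusted p = 0.0146; 1.56 within a set). Between PDGFRa+ and satellite cells the normalised difference was -0.55 (adjusted p = 0.189), against -1.10 from the deposited values (adjusted p = 0.0248) and -1.06 with median scaling (adjusted p = 0.0115). Hspa9 (mortalin), the HSP70 of the mitochondrial matrix, read 369.4 and 416.1 in aged and young PDGFRa+ cells, 699.6 and 858.1 in aged and young satellite cells, and 304.2 and 305.0 in aged and young CD31_CD45 cells. It was lower in PDGFRa+ than in satellite cells (-1.0025, SE 0.07, adjusted p = 0.00862, -1.08 within a set) and higher in satellite than in CD31_CD45 cells (1.30, SE 0.07, adjusted p = 0.00289, 1.19 within a set). Over the same 6 fits these differences of Hspa9 ran from -1.09 to -0.91 and from 1.21 to 1.39.

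The abundant cytosolic HSP70s gave no difference that held over scalings. Hspa8 (HSC70), the constitutive form, read 8924.1 and 10695.2 in aged and young PDGFRa+ cells, 13881.5 and 16184.0 in aged and young satellite cells, and 9418.6 and 8170.9 in aged and young CD31_CD45 cells. Although both satellite arrays lay above the other 4 in these units, the quantile-normalised difference was -0.04 in PDGFRa+ relative to satellite cells and -0.02 in satellite relative to CD31_CD45 cells, against -0.62 and 0.77 from the deposited values. Quantile normalisation gives each array the same set of values, which can compress differences of the brightest genes. Hspa1a, the main heat-inducible form, read 11961.3 and 11971.8 in aged and young PDGFRa+ cells, 16693.9 and 12395.7 in aged and young satellite cells, and 11146.6 and 11677.6 in aged and young CD31_CD45 cells. Its difference in PDGFRa+ relative to satellite cells turned sign, at 0.40 normalised (adjusted p = 0.258) and -0.27 from the deposited values (adjusted p = 0.349). Whether its probe also binds the near-identical Hspa1b was not tested.

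None of the remaining HSP70 members was called. Hspa1l, a relative best known from testis, was dim and highest in satellite cells, at 4.5 and 2.2 in aged and young PDGFRa+ cells, 35.8 and 29.9 in aged and young satellite cells, and 11.4 and 11.7 in aged and young CD31_CD45 cells. It passed by adjusted p alone in all 3 comparisons, at -0.83 (adjusted p = 0.00857), -0.27 (adjusted p = 0.0442) and 0.56 (adjusted p = 0.00852). Hspa2, another form best known from testis, read 53.3 and 75.7 in aged and young PDGFRa+ cells against 148.9 and 246.5 in aged and young CD31_CD45 cells, a difference past 2-fold that did not pass (-1.17, SE 0.32, adjusted p = 0.079). Hspa4, a nucleotide exchange factor for HSP70, passed in all 3 comparisons by adjusted p alone (-0.53, -0.30 and 0.23). Hspa13, an ER member, passed against CD31_CD45 cells (0.48 in PDGFRa+ and 0.35 in satellite cells), and Hspa14 was lower in satellite than in CD31_CD45 cells (-0.52, adjusted p = 0.0284). Hspa4l passed in no comparison.

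**Figure D2:**
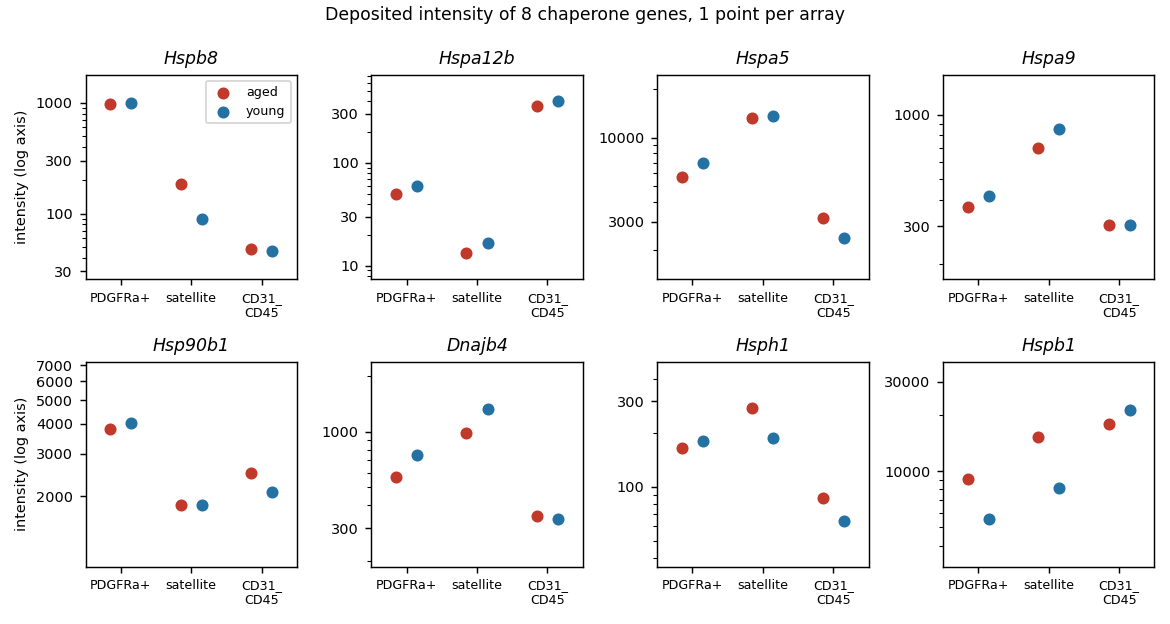
Deposited intensity (log axis) of 8 chaperone genes, 1 point per array, with aged arrays in red left of young arrays in blue for each population. Hspb8 is near 1000 in both PDGFRa+ arrays, and Hspa12b is at 356.8 and 401.0 in the aged and young CD31_CD45 arrays.

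Hsp90b1 and Hsph1 separated the populations while Hsp90aa1 did not pass. Hsp90b1 encodes GRP94, the HSP90 of the ER, and read 3795.7 and 4017.5 in aged and young PDGFRa+ cells, 1838.0 and 1845.3 in aged and young satellite cells, and 2500.9 and 2083.7 in aged and young CD31_CD45 cells. It was higher in PDGFRa+ than in satellite cells (1.10, SE 0.15, adjusted p = 0.0220; 1.18 within a set), and the difference from CD31_CD45 cells passed by adjusted p alone (0.68, adjusted p = 0.0492). The first of these ran from 0.92 to 1.27 over the 6 fits that left out an array. Hsp90b1 read lowest in satellite cells, where its ER partner Hspa5 read highest. Its difference between satellite and CD31_CD45 cells (-0.42) did not pass. Nor, as normalised, did that of Hspa5 between PDGFRa+ and satellite cells. The promoters of both genes hold the ER stress element, and its part in their levels was not tested. Hsph1, which encodes HSP110, an exchange factor for HSP70, read 163.2 and 179.7 in aged and young PDGFRa+ cells, 275.5 and 186.0 in aged and young satellite cells, and 86.4 and 64.6 in aged and young CD31_CD45 cells. It was higher in satellite than in CD31_CD45 cells (1.30, SE 0.15, adjusted p = 0.0112; 1.43 within a set) and by under 2-fold in PDGFRa+ than in CD31_CD45 cells (0.90, adjusted p = 0.0283). Hsp90aa1, the inducible cytosolic HSP90, read 4686.7 and 5344.4 in aged and young PDGFRa+ cells, 8033.3 and 6983.7 in aged and young satellite cells, and 4438.5 and 3274.6 in aged and young CD31_CD45 cells. Its normalised differences were -0.13, 0.26 and 0.39 (lowest adjusted p = 0.23), and the last was 0.97 from the deposited values (adjusted p = 0.0199).

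Both subunits of the mitochondrial chaperonin, a folding chamber in the matrix, were highest in satellite cells. Hspd1 (HSP60) read 1096.4 and 1092.9 in aged and young PDGFRa+ cells, 1725.4 and 1908.3 in aged and young satellite cells, and 1088.8 and 824.0 in aged and young CD31_CD45 cells. Hspe1 (HSP10), its lid, read 494.5 and 439.2 in aged and young PDGFRa+ cells, 627.1 and 777.9 in aged and young satellite cells, and 369.1 and 304.0 in aged and young CD31_CD45 cells. For both genes the satellite arrays lay above the other 4. Hspe1 was called between satellite and CD31_CD45 cells (1.02, SE 0.16, adjusted p = 0.0209; 0.75 within a set), a call kept in 1 of the 6 fits that left out an array, and Hspd1 passed there by adjusted p alone (0.84, adjusted p = 0.0291). In PDGFRa+ relative to satellite cells Hspd1 stood at -0.79 (adjusted p = 0.0443) and Hspe1 at -0.63 (adjusted p = 0.075).

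Among the DnaJ B genes, whose products bring chains to HSP70, Dnajb1, Dnajb4 and Dnajb6 were highest in satellite cells. Dnajb1 (HSP40), the main heat-inducible form, read 1177.7 and 1641.3 in aged and young PDGFRa+ cells, 2944.1 and 3503.8 in aged and young satellite cells, and 1373.4 and 1295.0 in aged and young CD31_CD45 cells. The difference was -1.11 in PDGFRa+ relative to satellite cells (SE 0.15, adjusted p = 0.0231; -0.97 within a set) and 1.06 in satellite relative to CD31_CD45 cells (SE 0.15, adjusted p = 0.0175; 0.92 within a set). Over the 6 fits that left out an array these differences of Dnajb1 ran from -1.31 to -0.90 and from 0.85 to 1.27. Dnajb4, a close relative in which human mutations cause a muscle disease, read 568.4 and 745.7 in aged and young PDGFRa+ cells, 987.4 and 1324.8 in aged and young satellite cells, and 351.9 and 336.5 in aged and young CD31_CD45 cells. It was higher in satellite than in CD31_CD45 cells (1.66, SE 0.12, adjusted p = 0.00507; 1.46 within a set), in each of the 6 fits that left out an array, and passed by adjusted p alone in the other comparisons (-0.88 and 0.79). Dnajb6, a suppressor of protein aggregation that is also mutated in a human muscular dystrophy, read 34.5 and 39.8 in aged and young PDGFRa+ cells, 120.7 and 110.6 in aged and young satellite cells, and 52.9 and 51.0 in aged and young CD31_CD45 cells. It was lower in PDGFRa+ than in satellite cells (-1.08, SE 0.06, adjusted p = 0.00658; -1.0003 within a set), and a dimmer second probe, reading 7.1 to 13.9, gave -0.14.

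Other DnaJ B and the DnaJ A genes passed, if at all, by adjusted p alone. Dnajb11 (ERdj3), a partner of BiP, was lowest in satellite cells, as was Hsp90b1, with 558.2 and 676.5 in aged and young PDGFRa+ cells, 284.3 and 289.6 in aged and young satellite cells, and 468.8 and 527.3 in aged and young CD31_CD45 cells. It stood at 0.93 in PDGFRa+ relative to satellite cells (adjusted p = 0.00904) and at -0.70 in satellite relative to CD31_CD45 cells (adjusted p = 0.00765). Dnajb8 read 74.1 and 101.1 in aged and young PDGFRa+ cells, 26.7 and 28.0 in aged and young satellite cells, and 29.2 and 42.7 in aged and young CD31_CD45 cells, just short of 2-fold against satellite cells (0.97, adjusted p = 0.0106). A second probe of Dnajb8 did not show this difference (-0.01). That probe read 0.9 in aged CD31_CD45 cells and was empty on the other arrays. Dnajb2, best known from neurons, was lowest in CD31_CD45 cells (0.61 for PDGFRa+ and 0.87 for satellite cells, adjusted p = 0.00411 and 0.0021). Dnaja1, a cytosolic partner of HSC70, was lower in satellite cells, at 256.9 and 295.3 in aged and young arrays, than in CD31_CD45 cells, at 589.9 and 547.1 (-0.94, adjusted p = 0.00773), and PDGFRa+ cells lay between them at 370.6 and 434.5. Satellite cells thus had the lowest level of Dnaja1 and the highest of Dnajb1. The other DnaJ A genes, Dnaja2, Dnaja3 and Dnaja4, passed in no comparison.

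None of the 28 DnaJ C genes was called between populations. By adjusted p alone 5 were lower in PDGFRa+ than in satellite cells (17.9%, against 12.8% of all genes) and none was higher (against 11.7%): Dnajc21, which acts in ribosome biogenesis (-0.56), Dnajc27 (-0.52), Dnajc7 (-0.46), Dnajc11 (-0.44) and Dnajc2 (-0.43). In satellite relative to CD31_CD45 cells 6 were higher (21.4%, against 19.3%), from Dnajc27 (0.73) down to Dnajc19-ps (0.23), and 1, Dnajc14 (-0.56), was lower (3.57%, against 15.6%). Dnajc19, a part of the mitochondrial import motor, was lower in CD31_CD45 than in the other populations, with 142.2 and 130.6 in aged and young PDGFRa+ cells, 111.4 and 125.7 in aged and young satellite cells, and 68.9 and 70.2 in aged and young CD31_CD45 cells (0.71 for PDGFRa+ and 0.58 for satellite cells). The pseudogene Dnajc19-ps read 445.3 to 707.2, and whether either probe binds the transcript of the other was not tested. For Dnajc3 (p58IPK), an ER member, 2 probes disagreed: in PDGFRa+ relative to satellite cells the brighter gave 0.59 and the dimmer 0.10. The DnaJ C genes that read under 10 on all arrays, Dnajc5b, Dnajc5g, Dnajc6, Dnajc22 and Dnajc28, differed by at most 0.06 on the log2 scale.

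**Figure D3:**
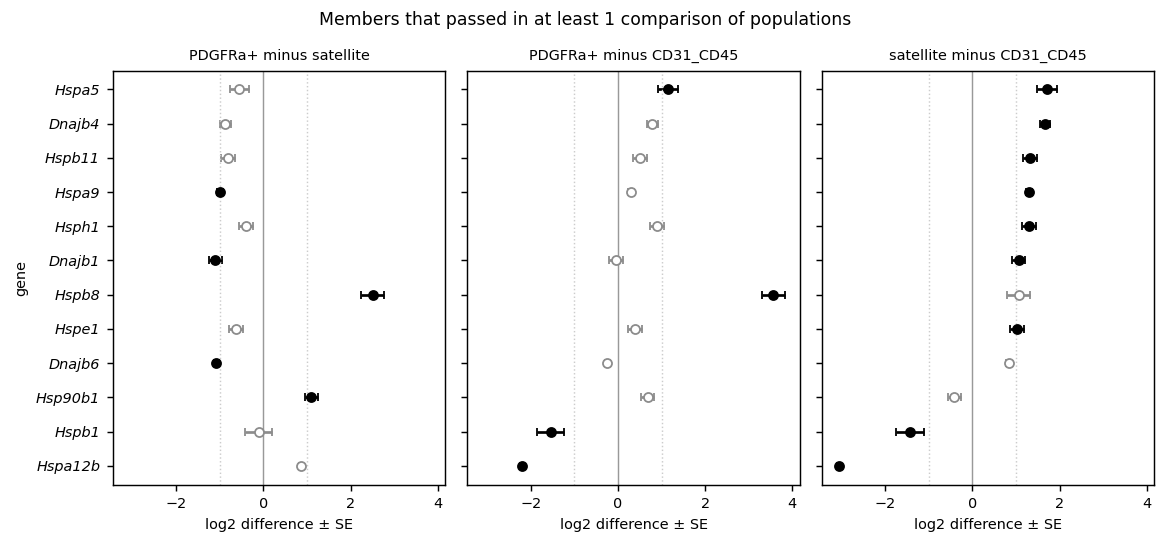
Log2 difference (points) with its SE (bars) in the 3 comparisons of populations, 2 arrays each, for the 12 chaperone genes called in at least 1 of them; filled points were called, and dotted lines mark 2-fold. Hspb8 lies far to the right in both comparisons of PDGFRa+ cells and Hspa12b far to the left in both comparisons against CD31_CD45 cells.

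Grouped by compartment, which was assigned by hand from background knowledge of each protein, the members of the ER and of the mitochondrion had different leading populations. Of 13 ER members 7 were highest in PDGFRa+ cells (53.8%, against 30.3% of all genes), 6 of them with both PDGFRa+ arrays above the other 4 (46.2%, against 17% of all genes). Their median difference was 0.26 in PDGFRa+ relative to satellite cells and 0.43 relative to CD31_CD45 cells, with 3 higher (23.1%, against 11.7% and 15.1% of all genes) and 0 lower by adjusted p alone in each. The other 6 ER members were highest elsewhere, Hspa5, Dnajb9 and Dnajc18 in satellite cells and Dnajb14, Dnajc14 and Dnajc16 in CD31_CD45 cells. Of 8 mitochondrial members 5 were highest in satellite cells (62.5%, against 39.1%). Their median was -0.32 in PDGFRa+ relative to satellite cells, with 0 higher and 3 lower (37.5%, against 12.8%) by adjusted p alone, and 0.45 in satellite relative to CD31_CD45 cells, with 5 higher (62.5%, against 19.3%) and 0 lower. The sign of each of these 4 medians was the same with the deposited values, with median scaling and with the local background. The 34 cytosolic members had medians of -0.12, -0.05 and 0.09 in the 3 comparisons. Of these members 15 were highest in satellite cells (44.1%, against 39.1%). By adjusted p alone 2 were higher (5.88%, against 11.7%) and 10 lower (29.4%, against 12.8%) in PDGFRa+ than in satellite cells. In satellite relative to CD31_CD45 cells 9 were higher (26.5%, against 19.3%) and 4 lower (11.8%, against 15.6%).

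Lists of genes that work with the chaperones gave the following values. Of 20 genes of ER folding and the unfolded protein response, 5 were called higher (25%, against 4.09% of all genes) and 0 lower in PDGFRa+ than in satellite cells, and the list median was 0.44. They were Sdf2l1 (1.44), the disulfide isomerases Pdia3 (1.34) and Pdia6 (1.23), the ER stress sensor Eif2ak3 (1.17) and Creld2 (1.02). By adjusted p alone 11 of the 20 were higher (55%, against 11.7%) and 3 lower (15%, against 12.8%). The 3 lower in PDGFRa+ than in satellite cells were Atf4 (-0.91), Ddit3 (-0.90) and Atf6 (-0.23). Pdia3 read 2419.7 and 3077.6 in aged and young PDGFRa+ cells, 1026.6 and 1037.6 in aged and young satellite cells, and 1445.2 and 1379.3 in aged and young CD31_CD45 cells. P4hb, a disulfide isomerase that is also a subunit of the collagen-hydroxylating enzyme, was called in PDGFRa+ relative to CD31_CD45 cells (1.15, SE 0.04, adjusted p = 0.0019). In satellite relative to CD31_CD45 cells Sdf2l1 was lower (-1.24), and the stress transcription factors Ddit3 (1.21) and Atf4 (1.09) were higher.

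Of 13 subunits of the cytosolic chaperonin TRiC and of prefoldin, which fold actin and tubulin, Cct2 was called lower in PDGFRa+ than in satellite cells (-1.22, SE 0.10, adjusted p = 0.0106) and higher in satellite than in CD31_CD45 cells (1.02, SE 0.10, adjusted p = 0.0080). By adjusted p alone 7 were lower in the first comparison (53.8%, against 12.8%) and 7 higher in the second (53.8%, against 19.3%), with list medians of -0.54 and 0.63. Of 11 genes of mitochondrial import and folding, Tomm20, an import receptor, was lower in PDGFRa+ than in satellite cells (-1.01) and Trap1, the mitochondrial HSP90, higher in satellite than in CD31_CD45 cells (1.07). By adjusted p alone 8 of the 11 were higher in satellite than in CD31_CD45 cells (72.7%, against 19.3%) and 0 lower.

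Of 23 heat shock factors and HSP90 co-chaperones, 2 were called lower in PDGFRa+ than in satellite cells (8.7%, against 3.2% of all genes). They were Unc45a (-1.24) and Bag3. Unc45b, the muscle form of this myosin chaperone, read 32.6 and 38.9 in aged and young PDGFRa+ cells, 139.1 and 77.8 in aged and young satellite cells, and 1732.1 and 2331.8 in aged and young CD31_CD45 cells. It was thus brightest in CD31_CD45 cells, and stood at -4.92 in PDGFRa+ (SE 0.31, adjusted p = 0.0042) and -3.92 in satellite cells (SE 0.31, adjusted p = 0.0054) relative to CD31_CD45 cells. The myofibre markers had another order. Acta1, the actin of the fibre, read 79.4 and 212.1 in aged and young PDGFRa+ cells, 1789.4 and 935.1 in aged and young satellite cells, and 273.7 and 365.3 in aged and young CD31_CD45 cells.

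The list of the immediate-early response, which is also induced by tissue dissociation, held 25 genes. In PDGFRa+ relative to satellite cells 1 was called higher (4%, against 4.09% of all genes) and 7 lower (28%, against 3.2%). In PDGFRa+ relative to CD31_CD45 cells 3 were higher (12%, against 4.69%) and 4 lower (16%, against 5.39%). In satellite relative to CD31_CD45 cells 9 were higher (36%, against 5.11%) and 4 lower (16%, against 6.56%). The list medians were -0.68, -0.10 and 0.68. Lower in PDGFRa+ than in satellite cells were Btg1 (-2.19), Btg2 (-1.93), Maff (-1.93), Egr2 (-1.85), Atf3 (-1.41), Myc (-1.28) and Nr4a1 (-1.18). Klf2 (1.05) was higher. Relative to CD31_CD45 cells, Myc (1.51), Egr1 (1.47) and Maff (1.10) were higher in PDGFRa+ cells. Klf2 (-1.84), Btg1 (-1.51), Ier5 (-1.44) and Klf6 (-1.34) were lower in PDGFRa+ cells. Egr1 read 7099.1 and 8907.4 in aged and young PDGFRa+ cells, 18571.6 and 26467.2 in aged and young satellite cells, and 2126.2 and 3619.2 in aged and young CD31_CD45 cells. Atf3 read 1219.2 and 1659.6 in aged and young PDGFRa+ cells, 3502.4 and 5498.9 in aged and young satellite cells, and 2130.7 and 2761.4 in aged and young CD31_CD45 cells. In satellite relative to CD31_CD45 cells Maff (3.02), Myc (2.79), Egr2 (2.46) and Egr1 (2.34) were higher. So were Junb (1.32), Btg2 (1.28), Socs3 (1.07), Nr4a1 (1.02) and Jund (1.01). Klf2 (-2.89), Ier5 (-1.45), Klf6 (-1.12) and Dusp1 (-1.03) were lower in satellite cells. Atf3 (0.46) passed there by adjusted p alone. The part of this response in the satellite levels of Dnajb1, Dnajb4, Hspa5 and Hsph1 was not tested.

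With age, no chaperone gene was called. The age term, 3 aged against 3 young arrays in the same limma fit, gave 0 of 68 members and 0 of all 18371 genes (0%). At an unadjusted p under 0.05 there were 9 of 68 members and 2026 of all 18371 genes, so the share of members was near that of all genes. Hspa4l (0.30), Dnajc9 (0.26), Dnajb14 (0.16), Hspa4 (0.14) and Dnajb2 (0.09) stood higher in aged cells. Dnaja2 (-0.31), Dnajc19-ps (-0.27), Dnajc11 (-0.26) and Dnajc7 (-0.25) stood lower. The adjusted p of these 9 in the limma fit was 0.328 to 0.453. Hspb1 had the largest age difference of a member (0.57, adjusted p = 0.538). Its value was 0.75 in PDGFRa+ cells, 1.02 in satellite cells and -0.08 in CD31_CD45 cells, so that aged cells stood above young cells in 2 of 3 populations. In the PDGFRa+ pair markers of other cells moved with it. As normalised, 11 of 13 hematopoietic markers counted were higher in aged cells, 1 of them, Lyz2, by 2-fold. The list summed to 2128.8 in the aged and 305.9 in the young array, of which Lyz2 made up 1904.6 and 110.1. All 4 glial markers measured were higher, 2 by 2-fold, with sums of 615.9 and 257.5 in the aged and young arrays. Ptprc, which defines blood-lineage cells, read 3.5 and 4.7 in the same arrays. In deposited units Cd52, Coro1a, Cd53, Csf1r and Cd79a also read lower in the aged array, and Laptm5, Lcp1, Cd14, C1qa, C1qb and Cd74 higher. The part of these cells in the value of Hspb1 was not tested.

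Within each population 1 aged array faces 1 young array, and no test is possible. No member differed by 2-fold in PDGFRa+ cells (0.416% of all genes did) or in CD31_CD45 cells (0.575%, 66 members counted), and 1, Hspb1, in satellite cells (1.22% of all genes, 1.12% higher in the aged array). With the local background the difference of Hspb1 in satellite cells turned sign, at -0.23. The member medians were -0.01, -0.02 and -0.02 in PDGFRa+, satellite and CD31_CD45 cells. In PDGFRa+ cells the next to Hspb1 among the extremes were Dnajc10, an ER disulfide reductase (-0.54; 128.1 in the aged and 225.7 in the young array), and Dnaja2 (-0.48). In CD31_CD45 cells Hspa5 (0.53), Hsp90aa1 (0.51), Hspd1 (0.49) and Hsp90b1 (0.42) were higher in the aged array, and Hspa2 (-0.57) and Dnaja2 (-0.38) lower. With the local background Dnaja2 turned sign in PDGFRa+ cells (0.31) and in CD31_CD45 cells (0.92), and Hspa2 in CD31_CD45 cells (0.58).

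The satellite pair had the widest spread. After Hspb1, the ER member Dnajb9 (ERdj4) stood at 0.92 (303.2 in the aged and 152.9 in the young array; -0.75 with the local background), Hspb8 at 0.89, Hspa1a at 0.66, Dnajc3 at 0.62, Hspa2 at 0.59 and Hsph1 at 0.57, and Dnajc4 was lowest at -0.57. All 8 mitochondrial members were lower in the aged array (median -0.13), and so were all 13 measured TRiC and prefoldin subunits (median -0.22). With median scaling in place of quantile normalisation these counts were 4 of 8 (median -0.02) and 8 of 13 (median -0.11). Fkbp5, an HSP90 co-chaperone induced by glucocorticoids, read 16.8 in the aged and 58.9 in the young satellite array (-0.86), and 16.7 and 44.5 in the aged and young PDGFRa+ arrays (-0.55). It went the other way in CD31_CD45 cells, at 13 in the aged and 5.7 in the young array (0.23). The limma age term of Fkbp5 did not pass (-0.39, adjusted p = 0.65). In the satellite pair age cannot be told apart from the scanner set. Markers of other cells moved with it as well. Of 14 mesenchymal markers 13 were higher in aged satellite cells, 7 of them by 2-fold, with a summed level of 15517 in the aged and 10650 in the young array. All 12 myofibre markers were higher, 4 by 2-fold, with sums of 5805.1 and 3159.1, and of 10 pericyte and smooth muscle markers 9 were higher, 5 by 2-fold, with sums of 9759.3 and 5805.7. Of 14 hematopoietic markers 12 were higher, 2 by 2-fold, with sums of 1169.1 and 241.3, of which Lyz2 made up 965.3 and 147.3, while Ptprc read 4.6 and 2.3 in the aged and young arrays. Their part in the satellite values of Hspb8 and Hspb1 was not tested.

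**Figure D4:**
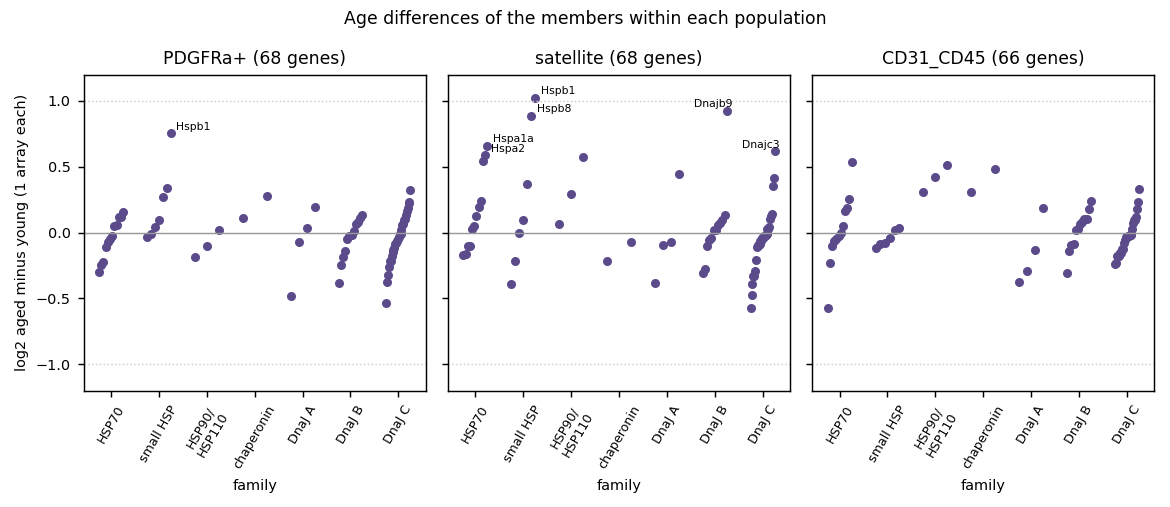
Log2 aged minus young of each chaperone gene (1 point per gene, 1 array per age) by family, in PDGFRa+ cells (68 genes), satellite cells (68) and CD31_CD45 cells (66); dotted lines mark 2-fold. The points centre near 0 in each population, and Hspb1 in satellite cells, at 1.02, is the point past 2-fold.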

How the data were processed

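RNA of 6 pools of sorted cells was amplified with amino allyl nucleotides, coupled to Cy5 and hybridised to 1 one-colour array each, per the labels' protocols. Per the file headers, the scanner files hold the median intensity of each of 27456 spots. In the deposited table, values are linear intensity scaled to a median of 25 per array. Comparison with the scanner files showed that the authors had subtracted the mean of 2736 blank spots (5% trimmed) from each spot.

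Spot medians were corrected here with limma's normexp against that blank level (offset 50), log2 transformed, and quantile normalised over 23473 probes. Genes above background (blank mean plus 2 SD) on at least 2 of 6 arrays were tested, 18371 in all. A model with population and age as terms (lmFit with eBayes in limma 3.58.1, R 4.3.3, two-sided, with 2 residual and 1.50 prior degrees of freedom) was adjusted by Benjamini and Hochberg over all of them. The labels do not say that the arrays of a population are separate replicates, and its 2 arrays differ in age, so p-values measure only the spread between them after the shared age difference. Symbols came from the array annotation through Entrez identifiers, and the arrays' genome build is not given in the sources used here. Promoter windows are those of RefSeq, build GRCm38.p6.

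The genes named are, for each comparison, the members called and the 5 highest and 5 lowest, the extremes of each age pair, 14 major chaperones fixed by name, and from each pathway list the members called and the 2 largest differences; further members are named to account for each family. Members and lists were chosen with earlier results of these data known. In simulated data of 18371 genes (PDGFRa+ minus satellite), 87 of 100 genes with a true log2 difference of 1 and 99 of 100 with 2 passed the adjusted p. There were 11 false calls. The 2-fold minimum used for calls was not part of these counts. A true log2 difference of 1 lies at that minimum, with a median estimate of 1.01, so fewer such genes would be called. Alternatives covered background, offset, scaling, probes, filters, model terms, scanner set and each array left out. Figures were drawn with Python 3.11.15 and matplotlib 3.10.9.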

Additional observations from a re-analysis of the deposited data

How the results depend on the processing

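No paired analysis was possible because each group holds 1 array and the groups share fewer than 2 replicate numbers; age stands as a term in the model in place of a pairing. Members called in PDGFRa+ relative to satellite cells, in PDGFRa+ relative to CD31_CD45 cells and in satellite relative to CD31_CD45 cells numbered 5, 4 and 9. The counts became 0, 1 and 1 with the local background of each spot, 8, 8 and 11 where background was not corrected, 8, 8 and 15 at an offset of 10, 10, 12 and 16 with the deposited values (64 members tested), and 23, 19 and 30 with no fold minimum. Leaving out 1 array at a time gave 0 to 6, 1 to 3 and 4 to 9. Members at 2-fold with age in PDGFRa+, satellite and CD31_CD45 cells numbered 0, 1 and 0, became 14, 12 and 6 with the local background and 1, 2 and 0 with the deposited values, and in satellite cells became 3 where background was not corrected, 3 at an offset of 10 and 2 with median scaling. With age as a model term 0 members passed under each alternative run. Each called difference between populations kept its direction under all alternatives. Age values that changed sign with the local background, and were at 2-fold with it or as reported, were Dnajc9 (-1.09), Hsp90b1 (1.86), Hspa8 (3.61) and Hspb11 (-1.08) in PDGFRa+ cells and Hspb1 in satellite cells (-0.23). Dnajb9 in satellite cells also changed sign (-0.75), and was at 2-fold where background was not corrected (1.01), at an offset of 10 (1.03) and with median scaling (1.02); the cause was not tested. Of 1512 further values of named members under alternatives, 1165 stayed alike, and 79 uncalled ones changed sign, 23 of them with the local background. The deposited values moved the median of all genes to -0.17 for age in PDGFRa+ cells and to 0.14 in satellite relative to CD31_CD45 cells. Signal over background limits Dnajb13, Dnajc5b, Dnajc5g and Hspb3, and for Hspb3, not above background in CD31_CD45 cells, the level in satellite cells was at least 1.07-fold higher (adjusted p = 0.137). The scanner sets were inferred from header values, and PDGFRa+ and CD31_CD45 cells share none.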
